A study of Arabidopsis thaliana with 24 samples.

Results

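The genes described here are encoded in the chloroplast genome of Arabidopsis: all listed identifiers that start with ATCG and had a mean value above 0 over the 24 samples. Of 133 such identifiers among 33540 listed genes, 96 met this rule and 37 had no read in any sample. RNA was sequenced from pooled Col-0 wild-type seedlings grown on agar medium in short days of 8 h light and 16 h dark, at 22°C or at 27°C, with 8.5 µM Heatin in 0.1% DMSO or with 0.1% DMSO alone as the mock. Heatin is a small molecule that the study selected as an enhancer of elongation growth. Harvest was at dawn on seedlings of 2 or 7 days, which gave 8 groups of 3 samples, and each sample combined the RNA of 3 separately harvested batches. All samples are of 1 genotype, and whole seedlings were used, so cotyledons, hypocotyl and root were not separated. Values are normalized reads, that is reads per gene divided by 1 depth factor per sample.

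The chloroplast genome keeps a small set of the genes that its bacterial ancestor had. They encode core subunits of photosystem I and II, of the cytochrome b6f complex, of the ATP synthase and of the NDH complex, the large subunit of Rubisco, part of the plastid ribosome, and the core of a bacterial-type RNA polymerase, PEP. PEP needs sigma factors and a set of associated proteins (PAPs) that are encoded in the nucleus, and a phage-type polymerase from the nucleus, NEP, transcribes other plastid genes and the PEP core itself. In seedlings that open in the light, proplastids and etioplasts become green chloroplasts, and transcripts of the photosynthetic genes accumulate strongly. In plastids a poly(A) tail marks an RNA for decay rather than for translation, so plastid messengers carry few stable tails.

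Of the 96 genes, 9 are given by name, and these 9 held 35.0% of the mean chloroplast total. They are psbA (ATCG00020, the D1 reaction centre protein of photosystem II), rbcL (ATCG00490, the large subunit of Rubisco), atpA (ATCG00120) and atpE (ATCG00470, the alpha and epsilon subunits of the ATP synthase), petA (ATCG00540, cytochrome f), psbG (ATCG00430, an old name of a gene for a subunit of the NDH complex), cemA (ATCG00530, an envelope membrane protein), rpl20 (ATCG00660, a protein of the plastid ribosome) and clpP (ATCG00670, the proteolytic subunit of the Clp protease). The other 87 genes are known by identifier here, with no name, role or class.

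In the TAIR10.1 assembly the chloroplast genome is 154478 bases long and holds an inverted repeat of 26264 bases, whose copies run from 84171 to 110434 and from 128215 to 154478. They make up 34.0% of its length, and 33 annotated genes lie wholly inside a copy. The gene rpl2 (ATCG01310, a ribosomal protein) has 2 coding parts, lies in both copies, at 84337 to 85843 on the minus strand and at 152806 to 154312 on the plus strand, and had no read in any sample. The starts of rpl2 and psbA are shown because they stand for a gene inside the repeat and one outside it; each is the first 50 coding bases, the length of 1 read, from RefSeq.
rpl2 at 85794 to 85843, minus strand, and at 152806 to 152855, plus strand: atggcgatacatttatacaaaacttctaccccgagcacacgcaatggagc
psbA at 1395 to 1444, minus strand: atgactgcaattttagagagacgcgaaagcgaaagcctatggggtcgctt
The first run occurs at 2 places in the genome and the second at 1. Of the 50-base windows of the rpl2 coding sequence, 100% occur at 2 places in the chloroplast genome. The coding sequences of atpA (9938 to 11461, minus strand), atpE (52265 to 52663, minus strand), cemA (60741 to 61430, plus strand), petA (61657 to 62619, plus strand), rpl20 (68512 to 68865, minus strand), and clpP (69910 to 71882, minus strand, in 3 coding parts) had no such window. The gene psbG was not found by symbol in that annotation, so its windows and its reads per kilobase were not computed. For psbA (383 to 1444, minus strand) 7.70% of windows, and for rbcL (54958 to 56397, plus strand) 14.5%, also occur outside the chloroplast genome. Reads placed at several positions were left out of the gene values, so the values of psbA and rbcL may be too low.

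The chloroplast genes took few reads. Between 4644 and 20125 reads per sample fell on them, of 19705950 to 60575036 reads on all genes, a share of 0.0144% to 0.0605%. The lowest share had a 95% Wilson interval of 0.0140% to 0.0148% and the highest one of 0.0597% to 0.0613%, and such intervals cover counting error only. The RNA library kit was Illumina TruSeq, and whether it selected poly(A) tails is not given in the sources used here. Of the 96 genes, 21 had a mean of at least 100 normalized reads, 50 lay between 10 and 100, 18 between 1 and 10, and 7 were under 1. A read was seen in every sample for 79 genes. The lowest gene that met the rule, ATCG01030, had 1 read in all 24 samples together, and the 37 left out had 0. Differences were tested with limma on log2(value + 1) over all genes that averaged 1 or more, so fold changes are on that scale and understate the change of low genes. A gene was called at an adjusted p (limma, Benjamini-Hochberg) below 0.1, and 89 chloroplast genes were tested at 2 days and in the fit of both ages, and 90 at 7 days.

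A few genes carried most of the signal. The 4 highest, psbA (mean 1231 normalized reads), rbcL (921), ATCG00190 (897) and ATCG00480 (804), held 40.7% of the chloroplast total, and the 10 highest 61.0%. The others of the 10 were atpA (394), clpP (331), ATCG00280 (318), ATCG00340 (316), ATCG00350 (305) and ATCG00680 (249.6). Per kilobase of coding sequence, the order of the 8 named genes other than psbG was psbA (1159 normalized reads per kilobase), rbcL (639.8), clpP (561), atpE (521), atpA (258), cemA (113), rpl20 (80.7) and petA (79.2). On that scale clpP stood above both ATP synthase genes, although atpA exceeded it in reads per gene.

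The summed chloroplast value was higher at 7 days than at 2 days. It ran from 5359 to 5653 in DMSO at 22°C, from 6215 to 9376 in DMSO at 27°C, from 5524 to 6058 in Heatin at 22°C and from 5788 to 6236 in Heatin at 27°C at 2 days. At 7 days it ran from 12006 to 14952, from 9580 to 9935, from 10421 to 24958 and from 9823 to 11397 in the same order. Every 7-day sample thus lay above every 2-day sample. In RNA of whole seedlings, fewer cells with chloroplasts and less chloroplast RNA per cell cannot be told apart.

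**Figure D1:**
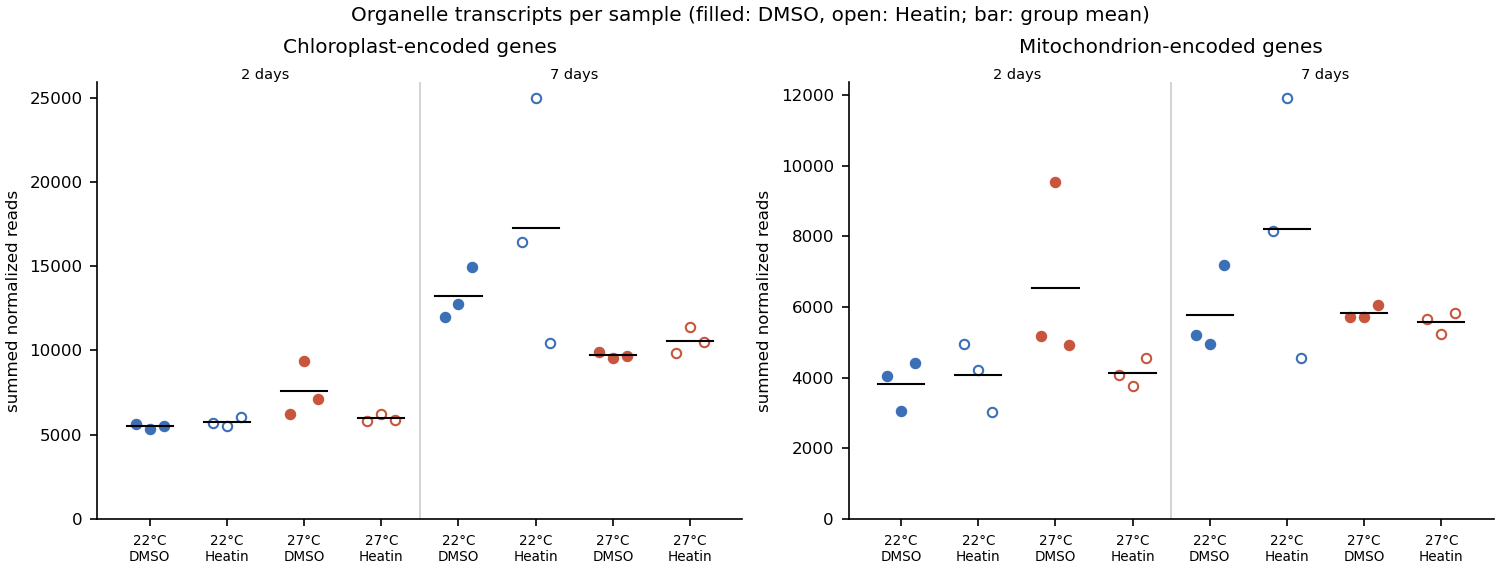
Summed normalized reads of the chloroplast-encoded (left) and mitochondrion-encoded genes (right) in each of the 24 samples, by temperature and compound at 2 and 7 days; each point is a sample and each bar a group mean. Replicate 2 of DMSO at 27°C at 2 days and replicate 2 of Heatin at 22°C at 7 days are the highest of their groups for both organelles, at 9376 and 24958 for the chloroplast.

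In 1 group a library stood apart from the others, and in another the 3 samples were spread widely. In replicate 2 of DMSO at 27°C at 2 days the chloroplast sum was 9376, against 6215 and 7114 in the other samples, and the mitochondrial sum was 9528, against 5181 and 4922. In replicate 2 of Heatin at 22°C at 7 days the chloroplast sum was 24958, against 16456 and 10421, and the mitochondrial sum was 11922, against 8154 and 4565. In that group replicate 1 lay between the other samples for both sums, so replicate 2 was the highest of a wide spread. These 2 libraries had the largest numbers of reads placed at more than 1 position in their groups, equal to 8.84% and 12.4% of the reads on genes, where all samples ran from 6.19% to 12.4%. The summed value of 8 seed storage genes was 1672 in replicate 2 of Heatin at 22°C at 7 days against 94.8 and 6.27 in the others, while that of 5 green tissue markers (genes of light-harvesting proteins and RBCS1A) lay between 2061020 and 2334720 in all 3. In replicate 2 of DMSO at 27°C at 2 days the seed storage sum was 324, the lowest of its group, against 2180 and 2885. The part of organelle RNA content in the results below was not tested, and test results of chloroplast genes that rest on these libraries are also given without them.

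The largest median differences were those between the ages at 22°C. In DMSO at 22°C, 66 of the 89 chloroplast genes tested rose from 2 to 7 days, 4 fell and 19 did not pass the test, with a median log2 fold change of 1.22 against -0.01 over all genes tested. Of all genes, 38.1% were called higher and 38.6% lower, 76.6% in all. In Heatin at 22°C, 63 rose and 3 fell, with a median of 1.15 (76.5% of all genes called, 37.8% higher). At the higher temperature fewer genes passed: 29 rose and 8 fell in DMSO, median 0.40 (71.4% of all genes called, 36% higher and 35.4% lower), and 51 rose and 6 fell in Heatin, median 0.76 (71.5% of all genes called, 35.7% higher). Without replicate 2 of DMSO at 27°C at 2 days and replicate 2 of Heatin at 22°C at 7 days, the DMSO counts at 27°C were 39 higher and 6 lower, and the Heatin counts at 22°C 58 higher and 5 lower.

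The DMSO and Heatin versions of the age comparison share no sample. Of the 89 genes, 78 had the same sign in both at 22°C, and 62 were called in both with the same sign, of 70 called in DMSO and 66 in Heatin. At 27°C, 77 had the same sign and 32 were called in both, of 37 and 57. The shares with the same sign, 87.6% and 86.5%, stood beside 92.4% and 89.9% over all genes tested. The genes called higher at 7 days in all 4 versions numbered 26, among them psbA and cemA, and those called lower in all 4 were ATCG00180 and ATCG00190. Of all genes, 35.7% to 38.1% were called higher in each version. The shares of all genes called in 2 or in all 4 versions were not computed, so these counts have no background.

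The gene psbA had the largest rise. Its values in DMSO at 22°C were 79.2, 67.3 and 77.2 at 2 days and 1679, 1756 and 2892 at 7 days (28.3-fold between the group means; log2 fold change 4.76, SE 0.45, adjusted p 3.13e-09). In DMSO at 27°C they were 119.7, 554 and 152 at 2 days and 1546, 1458 and 1554 at 7 days (log2 fold change 2.81, SE 0.45, adjusted p 9.44e-06). Every 7-day sample lay at least 2 times above every 2-day sample in both comparisons. In Heatin at 22°C the values were 120.4, 75.3 and 83.9 at 2 days and 3334, 7109.8 and 1430.2 at 7 days (log2 fold change 5.13, SE 0.45, adjusted p 9.84e-10). In Heatin at 27°C they were 94.7, 129 and 114 and 1559, 1737 and 1815 (log2 fold change 3.92, SE 0.45, adjusted p 9.24e-08). The groups did not overlap in any of the 4, and the replicates were closest to each other at 27°C and 7 days.

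The gene rbcL, whose protein is joined by nuclear-encoded small subunits, rose less. Its values in DMSO at 22°C were 315, 211 and 235 at 2 days and 1309.7, 1441 and 1964 at 7 days (log2 fold change 2.62, SE 0.41, adjusted p 7.04e-06). In DMSO at 27°C they were 338, 1365 and 349.8 at 2 days and 925, 706 and 842 at 7 days, and the age difference was not called (log2 fold change 0.59, SE 0.41, adjusted p 0.219). Replicate 2 of DMSO at 27°C at 2 days was higher than all 3 samples of 7 days there, so the groups overlapped. Without that library rbcL was called higher at 7 days (log2 fold change 1.25, SE 0.34, adjusted p 0.00343) and the groups were separate. In Heatin the values at 22°C were 349.9, 186 and 206 at 2 days and 2220.0, 3993 and 1087 at 7 days (log2 fold change 3.16, SE 0.41, adjusted p 5.53e-07). At 27°C they were 246, 274 and 270.0 and 918, 1299 and 1063 (log2 fold change 2.04, SE 0.41, adjusted p 0.000179). In both of these the groups were separate.

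ATCG00190 went the other way. In DMSO at 22°C it had 1545, 1625 and 1486 normalized reads at 2 days and 935, 786 and 804 at 7 days (log2 fold change -0.89, SE 0.095, adjusted p 2.50e-08). In DMSO at 27°C it had 800.0, 811 and 886 and 309.7, 381 and 352 (log2 fold change -1.26, SE 0.095, adjusted p 1.60e-10). In Heatin it had 1468, 1575 and 1682 at 2 days and 942, 797 and 751 at 7 days at 22°C (log2 fold change -0.93, SE 0.095, adjusted p 1.23e-08). The replicates of each group lay close together, and no 2 groups of different age at 1 temperature overlapped. In Heatin at 27°C it had 861, 856 and 725 and 410.0, 377 and 366 (log2 fold change -1.08, SE 0.095, adjusted p 1.87e-09). It was thus the highest chloroplast gene of every 2-day sample except replicate 2 of DMSO at 27°C, where rbcL was higher, and psbA was the highest of every 7-day sample.

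**Figure D2:**
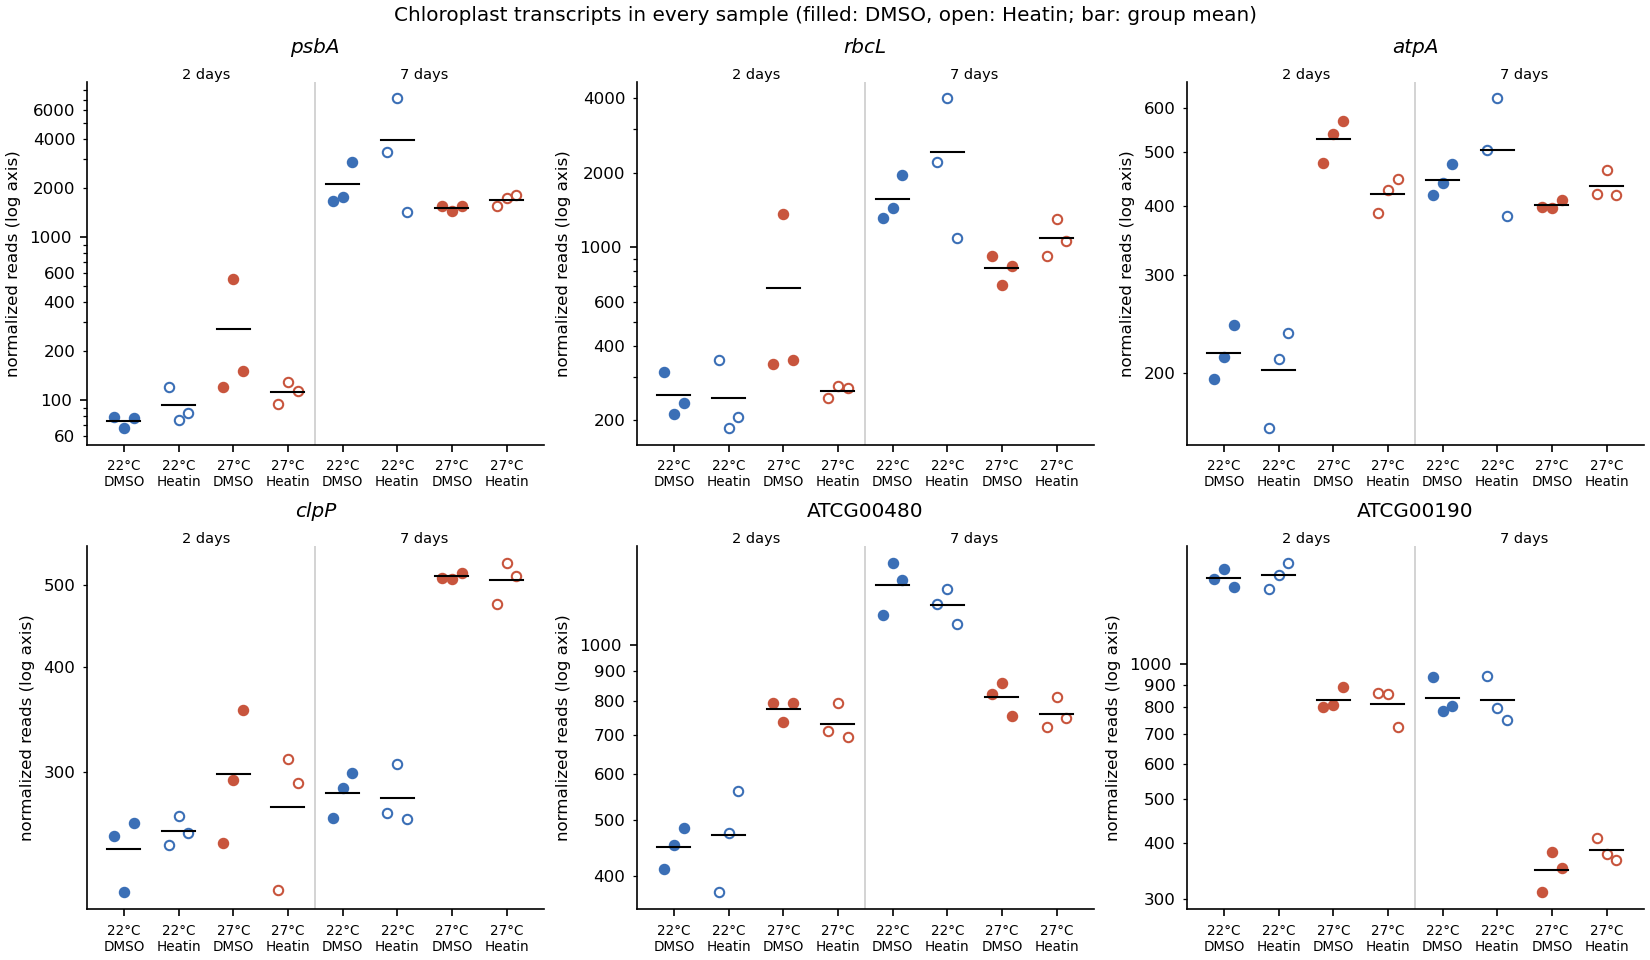
Normalized reads (log axis) of 6 of the 10 highest chloroplast genes in each of the 24 samples, by temperature and compound at 2 and 7 days; each point is a sample and each bar a group mean. psbA lies between 67.3 and 554 at 2 days and between 1430.2 and 7110 at 7 days, while ATCG00190 is lower at 27°C than at 22°C at each age and clpP is higher at 27°C at 7 days, with overlapping groups at 2 days.

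The subunits of the ATP synthase rose with age at 22°C. atpA had 195, 214 and 244 normalized reads in DMSO at 2 days and 419, 440.0 and 476 at 7 days (log2 fold change 1.03, SE 0.14, adjusted p 1.04e-06). At 27°C it had 478, 537 and 568 at 2 days and 397, 397 and 410.4 at 7 days, a fall (log2 fold change -0.39, SE 0.14, adjusted p 0.0197). The sign of the age difference of atpA in DMSO thus differed between the temperatures, and the groups were separate in both. In Heatin atpA had 159, 212 and 236 at 2 days and 504, 624 and 383 at 7 days at 22°C (log2 fold change 1.301, SE 0.14, adjusted p 3.48e-08). In Heatin at 27°C it had 388, 427 and 447 and 419, 464 and 418, which overlapped. atpE rose in DMSO by a log2 fold change of 1.603 at 22°C (SE 0.14, limma adjusted p 6.30e-10) and 0.34 at 27°C (SE 0.14, adjusted p 0.0319), the latter lost when replicate 1 or 2 of DMSO at 27°C at 7 days was left out (adjusted p up to 0.12).

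ATCG00480 had 410.4, 452 and 483 normalized reads at 2 days and 1123, 1384 and 1290.0 at 7 days in DMSO at 22°C (log2 fold change 1.49, SE 0.11, adjusted p 7.04e-11). In DMSO at 27°C it had 793, 735 and 794 and 821, 859.9 and 752, which overlapped. In Heatin it had 374, 473 and 561 and 1174, 1246 and 1085 at 22°C (log2 fold change 1.33, SE 0.11, adjusted p 4.35e-10), and 709, 793 and 692 and 720.2, 812 and 749 at 27°C. The age difference of ATCG00480 was therefore seen at 22°C and was within the spread of the samples at 27°C, with log2 fold changes of 0.07 (SE 0.11) in DMSO and 0.06 (SE 0.11) in Heatin there.

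ATCG00280, ATCG00340, ATCG00350 and ATCG00680, also among the 10 highest, rose with age in DMSO at 22°C. ATCG00280 had 100.5, 76.8 and 100 normalized reads at 2 days and 446, 465 and 645 at 7 days in DMSO at 22°C (log2 fold change 2.47), and 133, 369 and 166 and 374, 297 and 354 at 27°C (0.75). ATCG00340 had 142, 89.4 and 115 and 499, 587 and 652 at 22°C (2.34), and 149, 321 and 160.2 and 299, 315 and 333 at 27°C (0.67). At 22°C the ages were far apart in both genes, and at 27°C replicate 2 of the 2-day group reached the 7-day values, where the calls were lost with single other libraries left out (limma adjusted p up to 0.285 and 0.208). ATCG00350 had 149, 108 and 124 and 432, 514 and 507 at 22°C (1.93), and 150.2, 348 and 163 and 302, 232 and 292 at 27°C, where the difference was not called (0.42). ATCG00680 had 76.4, 73.6 and 71.9 and 364, 431 and 529 at 22°C (2.54), and 111, 280.0 and 139 and 314, 271 and 259.6 at 27°C (0.78). Without replicate 2 of DMSO at 27°C at 2 days, the age differences at 27°C were 1.19 for ATCG00280, 1.02 for ATCG00340, 0.80 for ATCG00350, which was then called (limma adjusted p 0.0221), and 1.17 for ATCG00680, which was 0.50 without replicate 1 of that group. In Heatin the same genes had, at 2 and 7 days at 22°C, 181, 87.9 and 109 and 694, 1142 and 351 (ATCG00280) and 136, 95 and 112 and 719, 1114 and 362 (ATCG00340). ATCG00350 had 157, 98 and 123 and 661, 1088 and 351, and ATCG00680 88.8, 73.5 and 84.7 and 490.0, 821 and 366. Replicate 2 of Heatin at 22°C at 7 days was the highest of the 24 samples for each of the 4. In Heatin at 27°C the values at 2 and 7 days were 139.6, 112 and 142 and 359, 372 and 415 (ATCG00280), and 128, 121 and 134 and 296, 318 and 396 (ATCG00340). ATCG00350 had 146, 125 and 156 and 312, 445 and 336, and ATCG00680 101, 116 and 94.1 and 269.7, 302 and 261. All 4 were called higher at 7 days in both Heatin comparisons.

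Among the smaller named genes, petA and cemA rose with age in DMSO at 22°C by log2 fold changes of 1.57 and 1.55 (limma adjusted p 1.36e-06 and 1.05e-07), and psbG by 1.16 (adjusted p 0.00021). The ribosomal gene rpl20 had 20.5, 20 and 17.4 normalized reads at 2 days and 24.6, 34 and 21.5 at 7 days and missed the threshold (log2 fold change 0.43, SE 0.23, adjusted p 0.102). Of genes known by identifier, ATCG00550 (3.01), ATCG00560 (2.76) and ATCG00700 (2.75) had the largest log2 rises after psbA, from means of 9.26, 5.86 and 4.22 normalized reads at 2 days. The 4 falls were ATCG00190, ATCG00040 (-0.68), ATCG00180 (-0.60) and ATCG00170 (-0.41, adjusted p 0.0966), and the last was lost with each of 4 single libraries left out (limma adjusted p up to 0.309). In DMSO at 27°C the largest rises were psbA, ATCG00550 (1.43), ATCG00560 (1.35) and ATCG00330 (1.18), and the largest falls ATCG00170 (-1.43), ATCG00040 (-1.33), ATCG00190 and ATCG00180 (-0.96). ATCG00170, ATCG00180 and ATCG00190 thus fell at both temperatures in DMSO. In Heatin at 22°C the largest rises were psbA, rbcL, ATCG00570 (2.83) and ATCG00560 (2.83), and the 3 falls were ATCG00050 (limma adjusted p 0.041, with 4, 4 and 4 reads against 0, 2 and 0, too few for a fold), ATCG00190 and ATCG00180 (-0.45). The fall of ATCG00180 there was not called without replicate 2 of Heatin at 22°C at 7 days (log2 fold change -0.27, adjusted p 0.267). In Heatin at 27°C, psbA, ATCG00510 (limma adjusted p 0.000552, 0, 3 and 0 reads against 6, 6 and 9), ATCG00410 (2.50, 0, 2 and 2 against 8, 16 and 5) and ATCG00550 (2.04) rose most, and ATCG00010 (-1.17), ATCG00190, ATCG00040 (-0.98) and ATCG00100 (-0.74) fell most. ATCG00010 was called at -0.76 without replicate 2 of Heatin at 27°C at 7 days. The gene clpP rose with age at 27°C, by 0.79 in DMSO (limma adjusted p 7.77e-06) and 0.91 in Heatin (adjusted p 1.29e-06), and was not called at 22°C (0.23 and 0.13). The falls of ATCG00050 and ATCG00100 were lost when single libraries of these groups were left out (limma adjusted p up to 0.146 and 0.349).

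At 2 days in DMSO most chloroplast genes rose in the warmth, and in Heatin fewer passed the test. In DMSO, 52 of the 89 tested rose at 27°C, 5 fell and 32 did not pass, with a median log2 fold change of 0.72 against 0.01 over all genes. Of all genes, 35.3% were called higher and 34.3% lower, 69.6% in all, so the share of chloroplast genes called, 64.0%, was near the background and their split by direction was not. Without replicate 2 of DMSO at 27°C the counts were 37 higher and 7 lower, with a median of 0.60. In Heatin, in samples not shared with DMSO, 23 rose and 9 fell, with a median of 0.25 (25.8% of those tested rose; 68.5% of all genes called, 34.1% higher and 34.4% lower). Of the 89 genes, 73 had the same sign in DMSO and Heatin, 24 were called in both with the same sign and 1 with opposite signs, of 57 and 32 called. The share with the same sign was 82.0%, against 92.0% of all genes, and the share of all genes called in both was not computed.

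The genes atpA and ATCG00480 rose in the warmth at 2 days in both DMSO and Heatin. atpA, at 195, 214 and 244 normalized reads at 22°C and 478, 537 and 568 at 27°C in DMSO, was 2.43-fold higher in the warmth (log2 fold change 1.28, SE 0.14, adjusted p 1.47e-05). In Heatin it was 2.08-fold higher (log2 fold change 1.07, SE 0.14, adjusted p 5.04e-05). All 27°C samples lay above all 22°C samples in both. ATCG00480 rose by 0.79 in DMSO (SE 0.12, limma adjusted p 0.000169) and by 0.66 in Heatin (SE 0.12, adjusted p 0.000651), and atpE by 0.78 and 0.52, the latter 0.34 without replicate 1 of Heatin at 22°C. Without replicate 2 of DMSO at 27°C the rise of atpA was 1.26 and that of ATCG00480 0.82.

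The rises of psbA and rbcL in DMSO leaned on 1 library. psbA had 79.2, 67.3 and 77.2 normalized reads at 22°C and 119.7, 554 and 152 at 27°C (log2 fold change 1.53, SE 0.43, adjusted p 0.00833). Without replicate 2 of DMSO at 27°C it was still called, at a log2 fold change of 0.85 (limma adjusted p 0.00514). rbcL rose by 1.12 (SE 0.43, adjusted p 0.0393) and was not called without that library (0.46, adjusted p 0.118). It was also lost without replicate 2 of DMSO at 22°C. The call was lost without replicate 2 of DMSO at 27°C also for ATCG00350 (0.69, and 0.31 without it) and petA (0.67 and 0.50). In Heatin at 2 days psbA (0.29, SE 0.43) and rbcL (0.15, SE 0.43) did not pass the test.

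Of the other named genes at 2 days, psbG rose by 1.098 in DMSO and 0.54 in Heatin, rpl20 by 0.54 and 0.52, and cemA by 0.52 in DMSO. Of these, rpl20 in both media, psbG in Heatin and cemA were not called when single libraries were left out (limma adjusted p up to 0.229, 0.204, 0.156 and 0.127). The largest rises in DMSO were ATCG01050 (1.66), ATCG00550 (1.61), ATCG00220 (1.56) and psbA, and in Heatin ATCG00220 (1.25), ATCG00150 (1.23), ATCG00560 (1.09) and atpA. ATCG00280 (1.13), ATCG00340 (0.79) and ATCG00680 (1.13) rose in DMSO, and without replicate 2 of DMSO at 27°C they were called at 0.69, 0.44 and 0.74. The rise of rpl20 in DMSO was 0.84 without that library. clpP had 252, 216 and 260.5 normalized reads at 22°C and 247, 293 and 356 at 27°C in DMSO, and 246, 266 and 254 and 217, 310.4 and 291 in Heatin, and was called in neither. The groups of clpP overlapped in both.

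ATCG00190 fell in the warmth at 2 days, to values given above with the ages, by 0.90 on the log2 scale in DMSO (SE 0.080, limma adjusted p 4.68e-06) and by 0.95 in Heatin (SE 0.080, adjusted p 3.67e-06). Its mean was 1552 ± 69.9 at 22°C and 832 ± 47 at 27°C in DMSO (SD, n = 3). The other falls in DMSO were ATCG00200 (-1.12, adjusted p 0.0907, with 7, 5 and 4 reads at 22°C and 0, 2 and 4 at 27°C), ATCG00030 (-0.89), ATCG00180 (-0.78) and ATCG00170 (-0.35). The calls of ATCG00200 and ATCG00030 were lost when single libraries were left out (limma adjusted p up to 0.38 and 0.249) and under edgeR. In Heatin the largest falls were ATCG00050 (limma adjusted p 0.0389, 4, 4 and 4 reads against 0, 0 and 3), ATCG00460 (adjusted p 0.0949, 2, 3 and 6 against 1, 0 and 1), ATCG00190 and ATCG01130 (-0.94), of which ATCG00050 and ATCG00460 were lost in the same way (adjusted p up to 0.136 and 0.284). Only ATCG00170, ATCG00180 and ATCG00190 were called lower at 2 days in both DMSO and Heatin.

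At 7 days more chloroplast genes fell than rose in the warmth. In DMSO, 23 of the 90 tested fell at 27°C, 3 rose and 64 did not pass, with a median log2 fold change of -0.16 against -0.03 over all genes. Of all genes, 61.8% were called, 32.9% lower and 28.8% higher, against 28.9% of the chloroplast genes, 25.6% lower and 3.33% higher. The share that fell was thus below that of all genes, and the share that rose was further below it. In Heatin 30 fell and 4 rose, with a median of -0.30 (33.3% and 4.44% of those tested; 62.9% of all genes called, 33.5% lower and 29.4% higher). Without replicate 2 of Heatin at 22°C, 15 fell and 11 rose, with a median of -0.14, so that count rests in large part on 1 library, and without replicate 3 of that group 40 fell and 4 rose. Of the 90 genes, 59 had the same sign in DMSO and Heatin and 20 were called in both with the same sign, 18 lower and 2 higher, of 26 and 34 called. The share with the same sign was 65.6%, against 84.6% of all genes, and the share of all genes called in both was not computed.

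ATCG00190 had the lowest adjusted p of the chloroplast genes at 7 days in both DMSO and Heatin, with values of 935, 786 and 804 at 22°C and 309.7, 381 and 352 at 27°C in DMSO (log2 fold change -1.27, SE 0.099, adjusted p 2.34e-08) and a log2 fold change of -1.104 in Heatin (SE 0.099, adjusted p 1.22e-07). ATCG00170 had 90, 83.1 and 105 normalized reads at 22°C and 34.1, 29.3 and 42.6 at 27°C in DMSO (log2 fold change -1.38, SE 0.25, adjusted p 0.000186). ATCG00180 had 146, 177 and 165 and 55.9, 83.2 and 84.4 (log2 fold change -1.14, SE 0.19, adjusted p 0.000104). These 3 were the genes called lower in the warmth in all 4 comparisons, and their groups were separate in each. Their mean values over all samples were 897, 85.4 and 161. The shares of all genes called lower or higher in all 4 comparisons were not computed. The largest fall in DMSO by size was ATCG00460, whose reads were 3, 1 and 4 at 22°C and 0, 0 and 2 at 27°C (limma adjusted p 0.0408, and up to 0.138 with 1 library left out).

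Photosynthetic genes were among those that fell. rbcL fell in DMSO at 7 days from 1571 ± 346 at 22°C to 824 ± 111 at 27°C (SD, n = 3; log2 fold change -0.92, SE 0.31, adjusted p 0.0182). In Heatin it fell by 0.98 on the log2 scale (adjusted p 0.0124), and by 0.52 without replicate 2 of Heatin at 22°C (adjusted p 0.0751). petA (-0.73 in DMSO and -0.78 in Heatin), atpE (-0.48 and -0.77) and cemA (-0.56 and -0.97) fell in both. psbA had 1679, 1756 and 2892 normalized reads at 22°C and 1546, 1458 and 1554 at 27°C in DMSO, which did not overlap but did not pass the test (log2 fold change -0.43, SE 0.36, adjusted p 0.341). In Heatin psbA was called lower (-0.93, adjusted p 0.0397), and not without replicate 2 of Heatin at 22°C (-0.36, adjusted p 0.263). With all replicates the Heatin groups overlapped in psbA, and without replicate 3 at 22°C its log2 fold change was -1.52. atpA, with log2 fold changes of -0.15 and -0.19, was not called at 7 days.

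Of the identifiers among the 10 highest, ATCG00480 fell by 0.64 on the log2 scale in DMSO (SE 0.082, limma adjusted p 6.14e-06) and by 0.62 in Heatin (adjusted p 8.44e-06). ATCG00280 (-0.59 and -0.78), ATCG00340 (-0.87 and -0.98), ATCG00350 (-0.82 and -0.81) and ATCG00680 (-0.63 and -0.93) were called lower in both. The call of ATCG00280 in DMSO was lost when single libraries were left out (adjusted p up to 0.272). ATCG00340 and ATCG00680 were both called at -0.61 in Heatin without replicate 2 at 22°C, and without replicate 3 of that group ATCG00280 had -1.22 and ATCG00350 -1.23. In Heatin, ATCG00280 and ATCG00350 were not called without replicate 2 at 22°C (-0.37 and -0.42, adjusted p 0.163 and 0.108). The largest falls in Heatin were ATCG00400 (-1.67), ATCG00030 (-1.25), ATCG01070 (-1.15) and ATCG00040 (-1.14), of which ATCG00030 and ATCG01070 were not called without that library (-0.99 and -0.83). ATCG00030 was also lost without replicate 3 of Heatin at 27°C (-0.64) and ATCG01070 without replicate 1 of it (-0.54).

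Few genes were higher in the warmth at 7 days, and clpP was the most abundant of them. Its values were 265, 287 and 299 at 22°C and 510.3, 509 and 518 at 27°C in DMSO (1.81-fold; log2 fold change 0.85, SE 0.083, adjusted p 2.68e-07). In Heatin they were 268, 306 and 263 and 475, 532 and 513 (log2 fold change 0.86, SE 0.083, adjusted p 2.50e-07). All 27°C samples of this protease gene lay above all 22°C samples. ATCG00150 had 104, 115 and 101 and 237, 202 and 209 in DMSO (log2 fold change 1.01, SE 0.17, adjusted p 8.19e-05), and rose by 1.00 in Heatin. It was the 1 gene called higher in the warmth in all 4 comparisons, with log2 fold changes between 1.00 and 1.23. The third rise in DMSO was ATCG00060, with 0, 0 and 0 reads at 22°C and 2, 1 and 4 at 27°C, for which no fold is given (limma adjusted p 0.0603, and up to 0.105 with 1 library left out). In Heatin ATCG00410 (1.56, with 4, 8 and 0 reads against 8, 16 and 5) and ATCG00065 (1.20) also rose, and ATCG00410 was not called with single libraries left out (adjusted p up to 0.477).

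**Figure D3:**
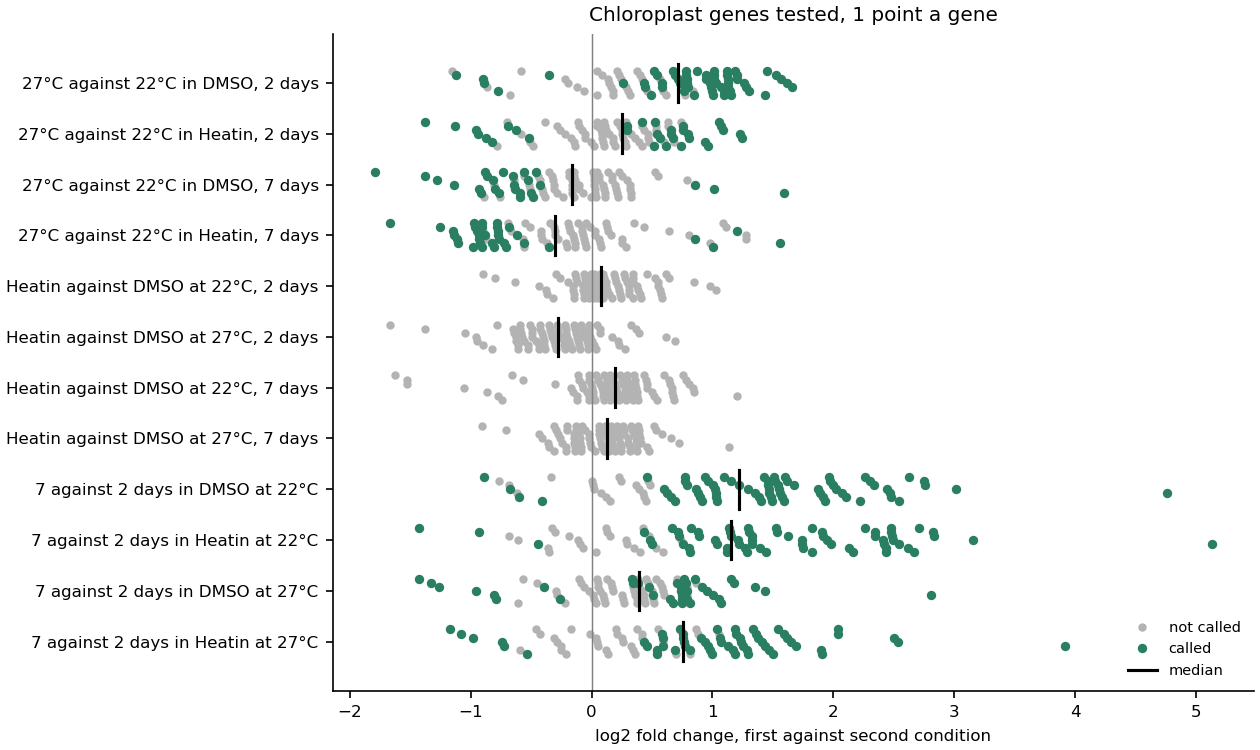
Log2 fold changes of the chloroplast genes tested in 12 comparisons; each point is a gene, green where called by limma at an adjusted p below 0.1, and the black bar is the median. The medians are 0.72 and 0.25 for warmth at 2 days, -0.16 and -0.30 for warmth at 7 days, and 1.22, 1.15, 0.40 and 0.76 for age, and no gene is called for Heatin.

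The effect of warmth in DMSO seedlings differed between the ages for 44 of 89 chloroplast genes, 43 of them with a lower value at 7 days than at 2 days (limma test of the difference of the log2 fold changes; 50.1% of all genes called, 27.6% lower). The median difference was -0.90, against -0.04 over all genes. The comparisons at 2 and 7 days share no sample, and of 88 genes tested in both 39 had the same sign and 49 the opposite sign, a share of 44.3% with the same sign against 68.4% of all genes. At the level of calls, 15 genes rose in the warmth at 2 days and fell at 7 days, and none did the reverse. The share of all genes with either pattern was not computed. Of all genes, 35.3% were called higher at 2 days and 32.9% lower at 7 days. Among the 15 were rbcL, atpE, petA and cemA, together with ATCG00280, ATCG00340, ATCG00350, ATCG00480, ATCG00680 and ATCG00700. The 2-day calls of rbcL, ATCG00350 and petA were lost without replicate 2 of DMSO at 27°C. The calls of cemA at 2 days and ATCG00280 at 7 days were lost when single libraries were left out.

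The difference with the lowest adjusted p among the chloroplast genes was that of ATCG00480, at -1.43 on the log2 scale (SE 0.15, limma adjusted p 5.66e-07). atpA had -1.42 (SE 0.20, adjusted p 1.19e-05) and atpE -1.26 (SE 0.19, adjusted p 2.57e-05). The ATP synthase genes thus had a positive effect of warmth at 2 days that was smaller or turned at 7 days. The largest differences were those of rbcL (-2.04), ATCG00700 (-2.00), psbA (-1.95) and ATCG00680 (-1.76). Without replicate 2 of DMSO at 27°C at 2 days, rbcL had -1.38 (adjusted p 0.0206) and psbA -1.28 (adjusted p 0.051). The 1 gene with a higher effect at 7 days was clpP (0.57, SE 0.18, adjusted p 0.0125). ATCG00190 fell more at 7 than at 2 days (-0.38, SE 0.13, adjusted p 0.0276), while the difference was not called for ATCG00180 (-0.36, SE 0.29) or ATCG00150 (-0.14, SE 0.25).

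**Figure D4:**
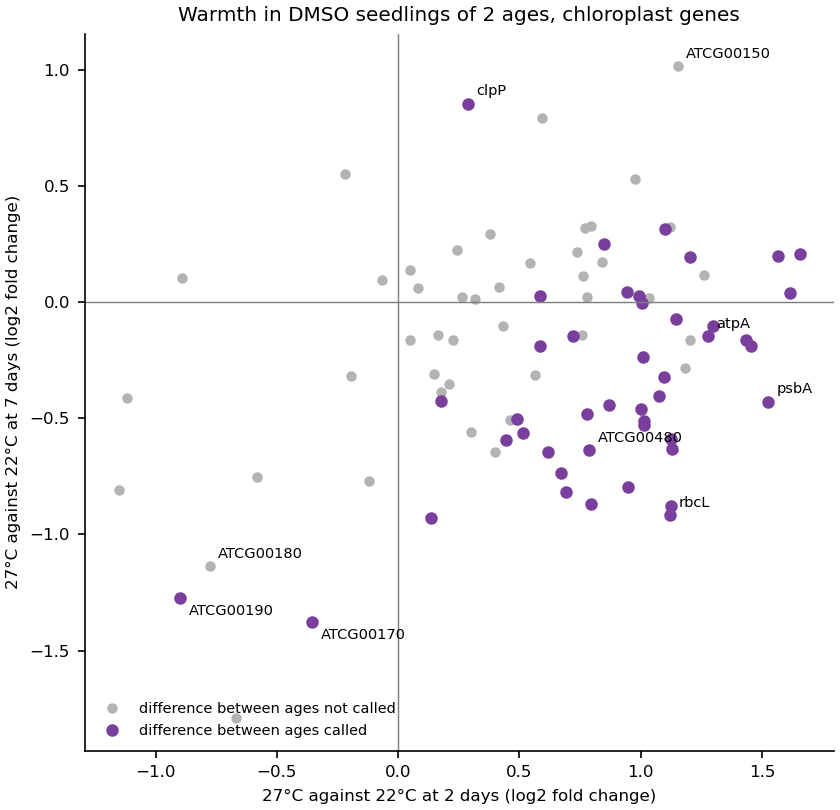
Log2 fold change of 27°C against 22°C in DMSO at 2 days (horizontal) and at 7 days (vertical) for the 88 chloroplast genes tested at both ages; purple points are genes whose difference between the ages was called by limma. Most points lie right of 0, rbcL at 1.12 and -0.92, clpP at 0.29 and 0.85, and ATCG00190 at -0.90 and -1.27.

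Heatin moved no chloroplast gene past the threshold in any of the 4 comparisons. At 2 days 0 of 89 passed at 22°C and 0 at 27°C (0.00432% and 0.00432% of all genes called by limma), and at 7 days 0 of 90 at 22°C and 0 at 27°C (2.47% and 5.42% of all genes; 1.39% higher and 1.08% lower at 22°C, 2.32% higher and 3.1% lower at 27°C). At an unadjusted p below 0.05 there were 4, 14, 8 and 5 genes in the same order, and edgeR's quasi-likelihood test and voom on the reads also called 0 in each. The share of all genes at that unadjusted p was not computed, so these counts have no background to be read against. The median log2 fold changes were 0.08, -0.27, 0.20 and 0.13, against about 0 over all genes. The 14 genes at 27°C and 2 days were all lower in Heatin, among them psbA (-0.95), rbcL (-1.05), atpA (-0.33) and cemA (-0.61), and the mock group of that comparison holds a library that stands apart. Without it the median there was -0.14, psbA had -0.27 and rbcL -0.39. At 22°C and 7 days the median was -0.01 without replicate 2 of the Heatin group and 0.45 without replicate 3, and in the latter case 8 genes were called higher.

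The gene psbA had a wide spread in Heatin, at 3334, 7109.8 and 1430.2 normalized reads at 22°C and 7 days against 1679, 1756 and 2892 in DMSO (log2 fold change 0.66, SE 0.36, limma adjusted p 0.483). The Heatin samples lay on both sides of the mock samples, and without replicate 2 of Heatin the log2 fold change was 0.096. For ATCG00190 the differences were small and well measured, at 0.02, -0.04, -0.02 and 0.15 on the log2 scale, with SEs of 0.080 at 2 days and 0.099 at 7 days. Those of clpP were 0.08, -0.13, -0.02 and -0.02, with SEs of 0.15 and 0.083. The Heatin and warmth comparisons share the mock samples at 22°C, so their values are given side by side and not related to each other.

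Since the summed chloroplast value differed between libraries, the share of each gene in the chloroplast total of its own sample was also taken. These shares are given as a description, and the share of 1 gene falls where others rise. ATCG00190 held 28.2% ± 1.84 of the total in DMSO at 22°C at 2 days and 11.3% ± 2.33 at 27°C (SD, n = 3). At 7 days it held 6.44% ± 1.23 and 3.57% ± 0.431. In Heatin the shares were 27.4% ± 1.4 and 13.6% ± 1.3 at 2 days and 5.37% ± 2.03 and 3.65% ± 0.459 at 7 days. The samples of the 2 temperatures did not overlap in DMSO or Heatin at 2 days or in DMSO at 7 days, and they overlapped in Heatin at 7 days.

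At 2 days psbA held 1.35% ± 0.0842 of the total in DMSO at 22°C and 3.32% ± 2.24 at 27°C. At 7 days it held 15.7% ± 3.16 and 15.6% ± 0.409. The samples of both temperatures overlapped in this share at 7 days. rbcL went from 4.59% ± 0.861 at 2 days to 11.8% ± 1.19 at 7 days at 22°C and was 8.45% ± 0.992 at 27°C and 7 days. The share of atpA at 2 days was 3.95% ± 0.487 at 22°C and 7.13% ± 1.22 at 27°C, without overlap, and at 7 days it was 3.37% ± 0.167 and 4.12% ± 0.12. clpP held 2.15% ± 0.133 at 22°C and 5.27% ± 0.112 at 27°C at 7 days. In the library of DMSO at 27°C at 2 days that stands apart, psbA held 5.91% of the total, against 1.93% and 2.13% in the others, so its excess was not equal over the chloroplast genes.

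**Figure D5:**
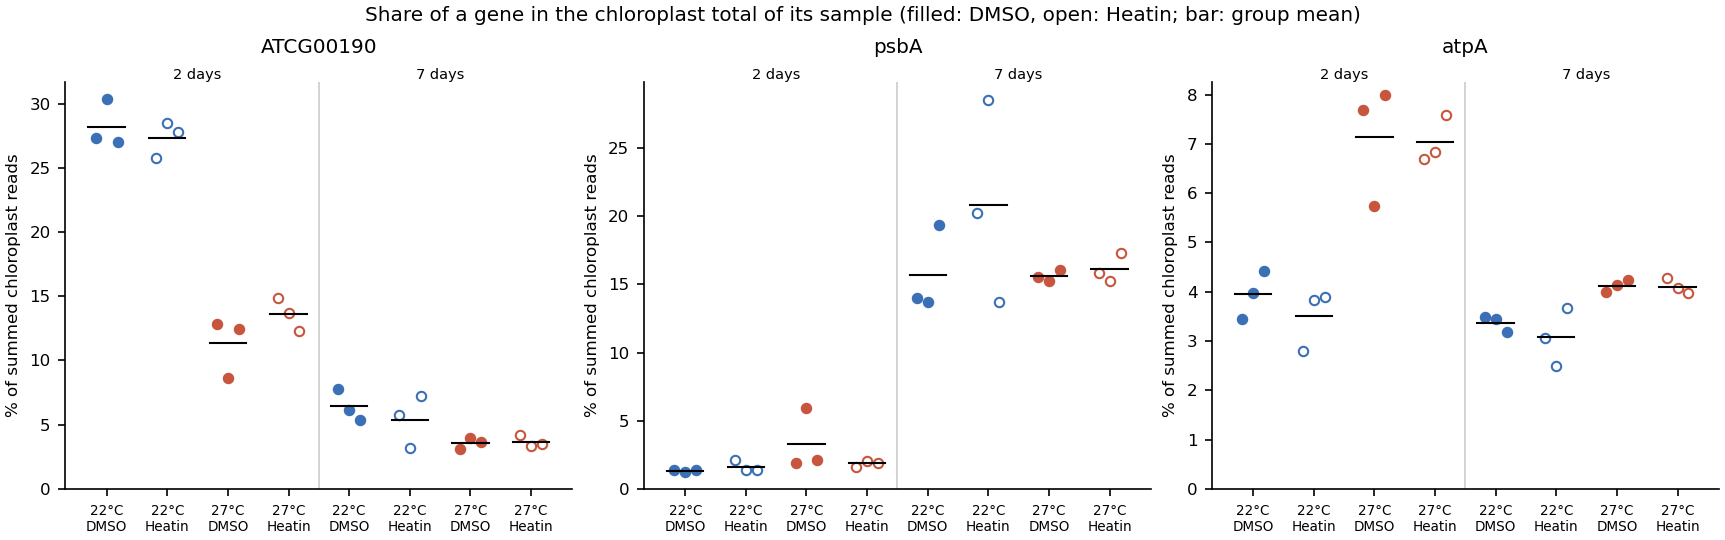
Share of ATCG00190, psbA and atpA in the summed chloroplast reads of each sample (%), by temperature and compound at 2 and 7 days; each point is a sample and each bar a group mean. ATCG00190 goes from a mean of 28.2% in DMSO at 22°C at 2 days to 3.57% at 27°C at 7 days, and psbA is under 6% in every 2-day sample and above 13% in every 7-day sample.

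Calls, fold changes and SEs differed with the number of reads. Of the 21 genes that averaged 100 normalized reads or more, 18 rose and 2 fell in the warmth at 2 days in DMSO, of the 50 between 10 and 100, 30 rose and 1 fell, and of the 18 tested under 10, 4 rose and 2 fell. In the same order the median log2 fold change was 0.79, 0.75 and 0.07, and the median SE was 0.15, 0.29 and 0.52. At 7 days in DMSO, 10 of 21, 12 of 50 and 1 of 19 fell. For the age comparison in DMSO at 22°C, 17 of 21, 40 of 50 and 9 of 18 rose. Of all genes, 35.3% were called higher for warmth at 2 days, 32.9% lower at 7 days and 38.1% higher for age in these comparisons. The shares of all genes at each of these read levels were not computed. The median SE of genes with a mean under 10 was thus over 3 times that of genes at 100 or more, and a missed call there does not show that a gene kept its level.

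The nuclear genes that make plastid transcription possible were counted from lists, beside 69.6% of all genes called for warmth at 2 days in DMSO (34.3% lower), 61.8% at 7 days (32.9% lower) and 76.6% for age at 22°C (38.6% lower). All 12 genes of PEP-associated proteins fell in the warmth at 2 days in DMSO, with a median log2 fold change of -1.25, and 9 fell and 2 rose at 7 days, with a median of -0.32. From 2 to 7 days at 22°C all 12 fell, with a median of -2.12. Examples at 2 days in the warmth were HMR (-1.84, adjusted p 0.000246), FLN1 (-1.95, adjusted p 9.20e-05) and FSD3 (-1.44, adjusted p 0.00087), which encode a protein of light signalling and plastid transcription, a fructokinase-like protein and an iron superoxide dismutase. The medians of the 89 chloroplast genes tested were 0.72 for warmth and 1.22 for age in the same comparisons.

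Of 8 genes for sigma factors and phage-type polymerases, 3 rose and 5 fell in the warmth at 2 days in DMSO, and 3 rose and 4 fell at 7 days. SIG5, a sigma factor known to respond to light, rose by 0.96 at 2 days (adjusted p 0.016) and fell by 0.96 at 7 days (adjusted p 7.11e-08), and rose by 4.04 with age at 22°C. SCA3, a phage-type polymerase of plastids, fell by 1.18 in the warmth at 2 days and rose by 0.42 at 7 days (adjusted p 0.0033 and 0.00093). SIG2 fell at both ages (-0.81 and -0.63). Of 6 genes for plastid RNA decay and processing, 2 rose and 3 fell at 2 days and 5 fell at 7 days, among them CSP41A, an RNA-binding endonuclease of the chloroplast (0.54 and -1.15).

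The 24 nuclear genes, RBCS1A of the green tissue markers among them, for partners of the chloroplast-encoded photosynthetic proteins had 4 rises and 4 falls in the warmth at 2 days in DMSO, with a median of 0.15, and all 24 fell at 7 days, with a median of -0.90. With age at 22°C 23 rose, with a median of 1.16. The 24 also had a lower effect of warmth at 7 than at 2 days in all cases, by a median of -0.99, beside -0.90 for the 89 chloroplast genes tested. RBCS1A, the small subunit of Rubisco, had 0.14 and -1.03 beside 1.12 and -0.92 for rbcL, and ATPC1, a nuclear-encoded subunit of the ATP synthase, had -0.14 and -0.91 beside 1.28 and -0.15 for atpA. The 1.12 of rbcL was 0.46, and not called, without replicate 2 of DMSO at 27°C at 2 days. In Heatin against DMSO the 4 lists held 1 called sigma factor or polymerase gene and 1 PEP-associated gene at 22°C and 7 days, and 1 PEP-associated gene at 27°C and 7 days, all lower (2.47% and 5.42% of all genes called).

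Mitochondrion-encoded genes and tissue markers were counted in the same way and stand beside the same shares of all genes. Of 146 mitochondrion-encoded identifiers, 37 were tested at 2 days and 53 at 7 days in DMSO, and 9 rose and 2 fell in the warmth at 2 days, with a median of 0.51. That group at 27°C holds replicate 2, with a mitochondrial sum of 9528, and no value without it is given. In Heatin at 2 days 4 rose and 2 fell, with a median of -0.006 (68.5% of all genes called). At 7 days in DMSO 29 rose and 1 fell, with a median of 1.41, where 3 chloroplast genes rose and 23 fell. The summed mitochondrial value overlapped there, at 4945 to 7197 in DMSO at 22°C and 5713 to 6067 in DMSO at 27°C. Among the 5 green tissue markers 1 fell at 2 days and 5 fell at 7 days in the warmth in DMSO, and among 5 root markers 3 and 5 fell. The summed green tissue value was 2240330 to 2254650 at 22°C and 1251090 to 1443590 at 27°C at 7 days in DMSO, and that of the root markers 3925 to 4132 and 3031 to 3214, with no marker at 0. Of 8 seed storage genes 0 were called in the warmth at 2 days and 1 rose at 7 days in DMSO by limma, where their sum was 7.18 to 34 at 22°C and 50.5 to 352 at 27°C, and all 8 fell with age at 22°C. The green tissue sum was 839268 to 985616 in DMSO at 22°C at 2 days, and all 5 markers rose with age there. The green tissue sum was thus higher at 7 than at 2 days at 22°C and lower in the warmth at 7 days. There, more mitochondrial genes rose than fell while their sum overlapped between the temperatures. The part of green tissue or of mitochondrial RNA in the chloroplast results was not tested.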

How the data were processed

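RNA of 24 samples of Arabidopsis Col-0 seedlings was sequenced (8 groups of 3). Per the labels and the methods, the authors aligned 50-base single-end reads to TAIR10 with TopHat2 2.0.13, counted them per gene without strand with HTSeq 0.6.1 and divided each sample by 1 DESeq size factor; the deposited signal is these normalized reads. In every sample 100% of values were whole multiples of 1 step (tolerance 0.01), which gave the reads. Rows that name no gene were left out of sums and tests: reads placed at several positions (6.19% to 12.4% of the reads on genes), ambiguous reads (1.06% to 1.28%) and reads on no feature (0.727% to 0.981%). Positions and sequences came from the RefSeq TAIR10.1 assembly.

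Log2(value + 1) was tested with limma 3.58.1 in R 4.3.3, with 8 group means over 24 samples for age and for the difference of warmth between ages and 4 group means over the 12 samples of an age otherwise. Tests on simulated data recovered 86% of 2-fold changes at each age (22996 and 23106 genes, 200 changed; warmth in DMSO). Each changed gene averaged at least 10 normalized reads, so recovery for lower genes was not measured. The share of genes changed there was also far below the share called in the data. edgeR 4.0.16, voom, other scalings, filters and pseudocounts, a replicate block, a stricter threshold and leaving out each replicate were alternatives. Values in every sample were given for the 10 highest genes, and in each comparison the 4 largest rises and falls called and those of the 10 were named, with the genes named in the sources. A description by gene class was not possible, since names were used for 9 of the 96 genes. Results of 1 gene named in the sources are not reported here. The genes and lists were chosen with earlier results of these data known. Replicates are pools of separately harvested batches. Same-numbered samples deviated together at 2 days between Heatin and DMSO, with correlations over genes of 0.194, 0.108 and 0.363 at 22°C and 0.190, 0.137 and 0.369 at 27°C. The numbers may thus pair the samples there. In no other comparison within an age did all 3 pairs exceed 0.1, but 14 of all 18 pairs at 2 days did. Python 3.11.15 with matplotlib 3.10.9 made the plots.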

Additional observations from a re-analysis of the deposited data

Results flagged for a closer look

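For 15 of the genes named, the effect of warmth in DMSO seedlings differed between the ages by limma's test of the difference itself (7 days minus 2 days on the log2 scale, adjusted p below 0.1 over all genes). Of the 89 chloroplast genes tested 44 were called, 49.4%, which is near the 50.1% of all genes. By direction, 48.3% of the chloroplast genes were lower and 1.12% higher, beside 27.6% and 22.6% of all genes. The difference was above 0 for clpP alone, at 0.57 (adjusted p 0.0125). It was below 0 for the photosynthetic genes rbcL (-2.04, adjusted p 0.0079), psbA (-1.95, adjusted p 0.0161), atpA (-1.42, adjusted p 1.19e-05), atpE (-1.26, adjusted p 2.57e-05), petA (-1.41, adjusted p 0.00106) and psbG (-0.78, adjusted p 0.0718). The envelope protein gene cemA had -1.08 (adjusted p 0.00204). Without replicate 2 of DMSO at 27°C at 2 days, rbcL had -1.38 (limma adjusted p 0.0206) and psbA -1.28 (limma adjusted p 0.051). Genes known by identifier were ATCG00700 (-2.00, adjusted p 0.00512), ATCG00680 (-1.76, adjusted p 0.00052), ATCG00280 (-1.71, adjusted p 0.00689), ATCG00340 (-1.66, adjusted p 0.00271), ATCG00350 (-1.51, adjusted p 0.00752) and ATCG00480 (-1.43, adjusted p 5.66e-07). ATCG00190 had the smallest of these differences, at -0.38 (adjusted p 0.0276), and it fell in the warmth at both ages. The difference of psbG was lost in several settings, and was not called when replicate 1 of DMSO at 22°C at 2 days was left out, among others (adjusted p up to 0.232).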

How the results depend on the processing

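The 13 counts of chloroplast genes called were recomputed under the alternatives, which gave 229 values, of which 224 stayed within 1.5 times the reported count. Of 2659 values of named genes, 2517 kept their side of the threshold, 142 lost the call and 0 changed sign, and 120 of the 152 named calls held under every alternative. Same-numbered samples had correlations over genes of 0.00747 to 0.369 at 2 days and -0.0835 to 0.105 at 7 days, over 0.1 in 14 and 1 of 18 pairs. For Heatin at 2 days, where the numbers may pair the samples, the block also called 0 chloroplast genes. With the replicate block 2 genes were called for Heatin at 22°C and 7 days, both higher, where 0 were reported, and the other counts with the block were within 1.5 times those reported (58 against 57 for warmth at 2 days in DMSO, 27 against 26 at 7 days). With single replicates removed, there were 0 to 8 genes for Heatin at 22°C and 7 days and 0 to 1 at 27°C and 7 days, and for warmth in Heatin at 7 days 26 to 44. For warmth there were 43 to 54 in DMSO at 2 days, 20 to 26 in DMSO at 7 days and 22 to 31 in Heatin at 2 days. For age there were 62 to 67 and 25 to 42 in DMSO at 22°C and 27°C, and 63 to 68 and 49 to 59 in Heatin. For the difference of warmth between the ages there were 39 to 45. edgeR called 50 and 26 genes for warmth in DMSO at 2 and 7 days. In Heatin at 7 days the split of warmth calls moved from 4 higher and 30 lower to 11 and 15 without replicate 2 of Heatin at 22°C, the setting chosen after seeing the data. Genes with few reads had larger SEs, and a missed call among them does not show an unchanged level. The part of low reads in these counts and the cause of the spread between libraries were not tested.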
